A study of Equus caballus with 4 samples.

Results

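Expression of the bone morphogenetic protein (BMP) signaling genes BMP2, BMP4, BMP6, SMAD6, SMAD7 and GREM1 and of the inhibitors of DNA binding ID1, ID2, ID3 and ID4 was examined in equine satellite cells incubated with gamma-oryzanol (GO). Probes were taken as members when the gene name in the array files, ignoring case, was one of these 10 symbols. This found 22 of the 43603 noncontrol probes, for 7 genes: 9 for BMP4, 5 for BMP6, 3 for ID2, 2 for BMP2, and 1 each for ID3, SMAD6 and GREM1. ID1, ID4 and SMAD7 carry a transcript identifier in place of a symbol and were found by the description of the probe in the same files. That naming, added after the files were seen, gave 8 further probes, 5 for ID1, 2 for SMAD7 and 1 for ID4, and 30 probes in all. Results are given for both sets, since the rule alone reaches 7 of the 10 genes.

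BMPs are secreted ligands that bring type I and type II receptor kinases together on the cell surface. The receptors phosphorylate SMAD1, SMAD5 and SMAD9, which join SMAD4 and enter the nucleus, where the ID genes are among their best known direct targets. ID proteins have a helix-loop-helix region but no DNA-binding region, and they bind E proteins, the partners that MYOD1 and its relatives need to switch on muscle genes. SMAD6 and SMAD7 are inhibitory SMADs that are themselves induced by the pathway, and GREM1 is a secreted protein that binds BMP2 and BMP4 and keeps them from their receptors.

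Satellite cells, the stem cells of muscle, came from the semitendinosus muscle of young colts and were 1 primary cell line, chosen in the study for its viability and fusion. GO, obtained from rice bran oil, consists of ferulic acid esters of plant sterols and triterpene alcohols. Differentiating cells received 125 nM GO for 24 h up to day 3 of differentiation, and control cells received only the vehicle, 0.04 μl/ml DMSO, which the GO-treated cells received too. Each of 4 arrays, all on 1 slide, was hybridized with RNA of treated cells in Cy5 and of control cells in Cy3. The labels call the 4 arrays biological replicates, without saying whether they were separate cultures of the line, so p-values measure the spread between these arrays. The dyes were not swapped, and therefore GO and dye cannot be told apart. Each value is a log2 ratio, GO-treated to control, from the log10 ratios in the scanner files. Only probes that stood well above background in at least 1 channel on every array were tested. A probe changed when its false discovery rate was 0.05 or less and its level differed 1.3-fold or more, which is 0.38 on the log2 scale. The adjusted p-values are those of limma with Benjamini-Hochberg adjustment over the 26831 probes tested. In RNA of a whole culture, fewer cells of a type and less RNA per cell cannot be told apart.

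Of the noncontrol spots, 63.5 to 68.9% were detected above background for control cells and 57.4 to 67.0% for GO-treated cells. The shares were alike on array 1 (66.9% control, 67.0% GO). On arrays 2, 3 and 4 the GO share was lower, at 66.5, 62.0 and 57.4% against 68.9, 66.6 and 63.5%. Cell type markers were read by the brightest probe of each gene. Signals were summed within a list, so the sums follow the brightest probes, and they were not read as amounts of a cell type. Of the muscle markers, 8 of 10 had a probe, all well above background in both channels of all arrays. Of these 8, 6 were lower in GO-treated cells, against 453 lower of the 8449 named genes tested. The median log2 ratio of the 8 was -0.62. Their summed signal was 146834 to 201281 in control cells and 85168 to 119972 in GO-treated cells, without overlap. Most of it came from MYH3 (67971 to 94635 in control cells) and ACTA1 (50318 to 73910). All 5 fibroblast markers with a probe were also well above background. Their summed signal was 157754 to 223835 in control and 163753 to 209782 in GO-treated cells. COL3A1 (91242 to 137690 in control cells) and DCN (51906 to 68405) gave most of this sum. By the brightest probe, PDGFRA was the one that was higher, with a dim control signal of 21.8 to 46.4. DCN did not change by its brightest probe, but 1 of its 2 probes passed as higher, at 0.42. No probe of COL3A1, LUM or THY1 changed. The 5 endothelial markers were at background on every array, as were ADIPOQ, FABP4 and CIDEC of the adipocyte markers, whereas LPL exceeded it on 3 arrays. Of the leukocyte markers, CD14 and CD68 were above background and CD3E and ITGAM were not. Neither CD14 nor CD68 changed with limma, and CD68 had an unadjusted p of at most 0.05. MYH11 and CSPG4, of smooth muscle and pericytes, were above background in all arrays, and neither changed nor reached that unadjusted p. The summed signal of these 4 leukocyte markers was 4219 to 5015 in control and 4455 to 5287 in GO-treated cells. Almost all of it came from CD14 (4164 to 4946 in control cells). The sum of the smooth muscle and pericyte markers was 163 to 316 and 170 to 318, and that of the adipocyte markers 37.0 to 93.7 and 33.9 to 119. The endothelial sum was 27.5 to 36.5 and 29.3 to 39.8.

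BMP2 was the member that changed, with lower signal in GO-treated cells on every array. By the gene name alone, 16 of the 22 probes were tested and 2 changed, both of BMP2. Over all tested probes 8.94% changed, and 5.61% changed downward. Taking each gene by its brightest tested probe, 1 of 5 genes changed by the gene name alone and 1 of 8 with ID1, ID4 and SMAD7 included, against 8.69% of 8449 named genes. These counts are close to that background, and what the members showed lies in single genes. The median log2 ratio was -0.15 for the 5 tested genes found by gene name and -0.052 for the 8, against 0.0019 over all named genes. SMAD7, among the 8, met the filter through the control channel alone, which favours a lower ratio. No direction is therefore read from these medians.

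**Figure D1:**
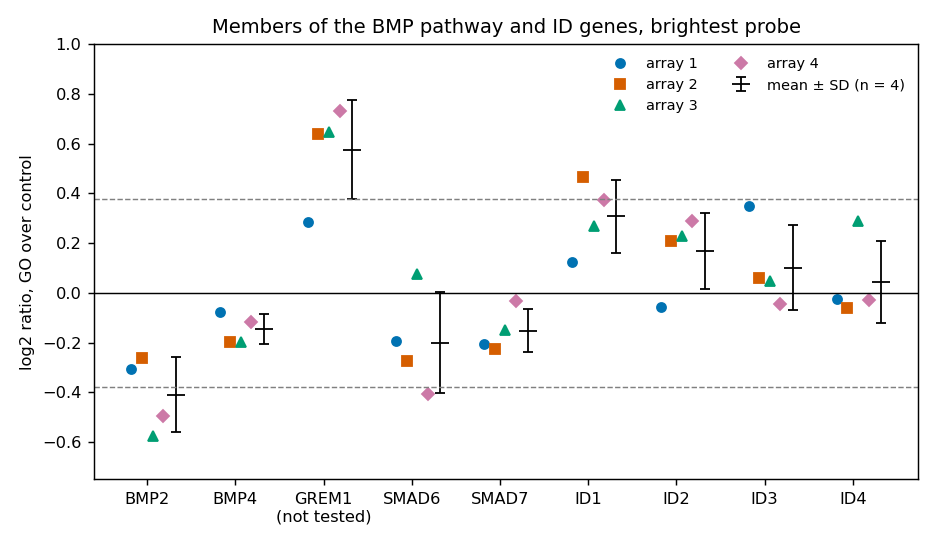
Log2 ratio, GO to control (vertical axis), for the brightest probe of 9 members, with 1 symbol per array and the mean ± SD of the 4 arrays in black. Dashed lines mark a fold change of 1.3. BMP2 lay below 0 on all 4 arrays, ID1 and GREM1 lay above 0 on all 4 arrays, and the ID2 value of array 1 lay below those of the other arrays. BMP6 is not drawn because it was at background.

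BMP2 is a ligand that turns cultured myoblasts away from muscle and towards bone differentiation when given in excess. Its 2 probes on chromosome 22 of EquCab1 cover the end of the coding sequence, and they share 30 bases. The probe at chr22:16619147-16619206 (minus strand) and the brightest BMP4 probe, at chr24:1954593-1954652 (minus strand), have similar sequences. Both are printed 5′ to 3′ from the array files to show how alike the targets of the member that changed and of its close relative are. Capitals mark the bases that are the same in both when the probes are aligned without gaps.
BMP2: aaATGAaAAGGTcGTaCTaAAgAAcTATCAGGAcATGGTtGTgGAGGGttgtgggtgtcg
BMP4: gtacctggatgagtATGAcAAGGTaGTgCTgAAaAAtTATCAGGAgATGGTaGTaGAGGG
The pair aligned over 48 bases, of which 37 (77.1%) were identical. Whether BMP4 transcripts bound to the BMP2 probe was not tested.

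The brightest BMP2 probe, at chr22:16619117-16619176, had a processed signal of 2117, 1960.0, 2508 and 2318 in the control channel of arrays 1 to 4. In the GO channel its signal was 1711, 1636, 1684 and 1644. The control signals were all above the GO signals, so the groups did not overlap, and the control signals were spread more widely (SD 238) than the GO signals (SD 34.9). The log2 ratios were -0.31, -0.26, -0.57 and -0.50, lowest on arrays 3 and 4. Their mean was -0.41 ± 0.15 (SD, n = 4), a 1.33-fold fall, with an adjusted p of 0.0158 and a 95% interval of -0.58 to -0.23. The probe printed above had log2 ratios of -0.38, -0.34, -0.62 and -0.52, in the same order of arrays. Its mean was -0.47 ± 0.13 (SD, n = 4), a 1.38-fold fall, with an adjusted p of 0.00878. Without array 3 the brightest probe had a log2 ratio of -0.35 and an adjusted p of 0.0619, while the other probe still passed at -0.41 and 0.0393. When the arrays were centred on their median without lowess, the brightest probe was at -0.36, under the fold threshold. The other remained past both thresholds at -0.44. Neither probe passed with no filter on dim probes, a plain one-sample test or unpaired channels. In that order, the probe printed above had an adjusted p of 0.0516, 0.0812 and 0.0587. The summed signal of the muscle markers was also lower in the GO channel, and its part in the BMP2 result was not tested.

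**Figure D2:**
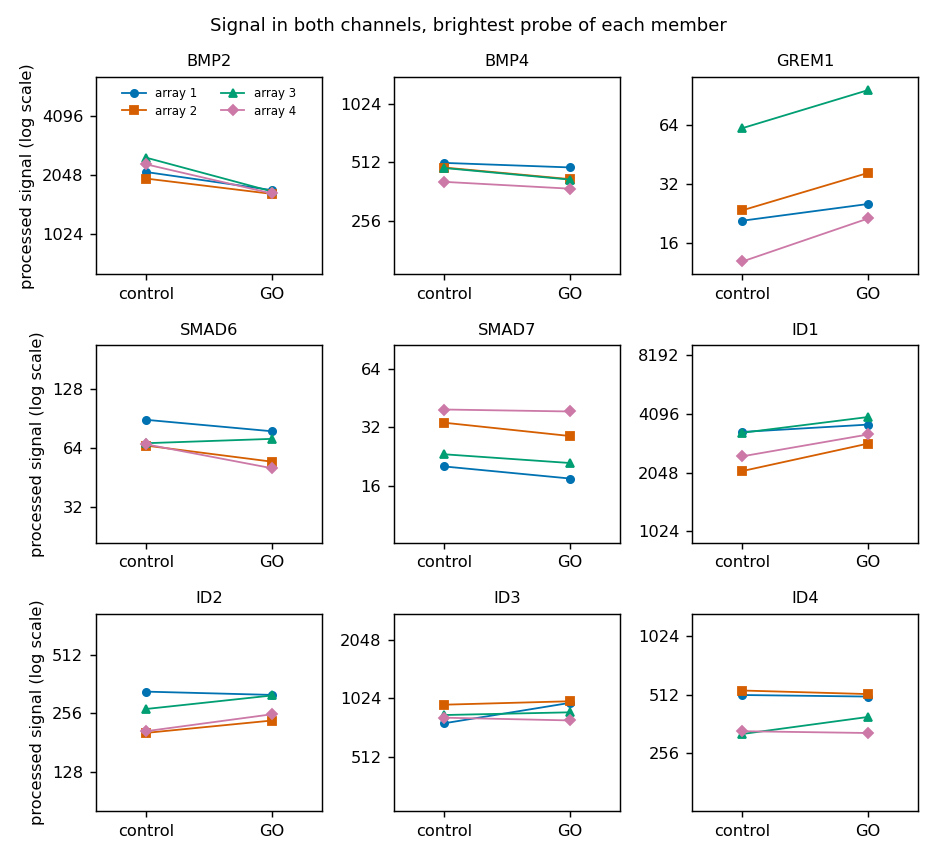
Processed signal of the brightest probe of each of 9 members in the control and the GO channel (vertical axis, log scale with the same relative span in each panel), with a line for each array. The BMP2 lines fall to a narrow range of 1636 to 1711 in GO-treated cells, and the ID1 lines rise on all arrays from starting levels of 2085 to 3306.

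BMP4, the close relative of BMP2, was slightly lower in GO-treated cells and did not pass. Its 9 probes hold only 5 different sequences, all within 64 bases of chromosome 24 (1954589 to 1954652), and all share 56 bases, so they are repeated measurements of 1 site. The 4 pairs with identical sequence differed by 0.010 to 0.052 in mean log2 ratio. The brightest probe had a signal of 509, 482, 479.5 and 407 in the control channel. In the GO channel it was 483, 421, 418 and 376. The ranges overlapped, although each array had a lower GO than control signal for this probe. The log2 ratios were -0.08, -0.20, -0.20 and -0.12, with a mean of -0.15 ± 0.060 (SD, n = 4; adjusted p = 0.118). Over the 9 probes the mean log2 ratio ranged from -0.15 to -0.067, with adjusted p between 0.118 and 0.440. None changed with limma, and 4 had an unadjusted p of at most 0.05.

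BMP6, which helps to set iron balance through hepcidin in the liver, was not measurable in these cells. Its 5 probes share 56 bases within 64 bases of chromosome 20 (7676296 to 7676359), and no array had any of them well above background in either channel. Their signals lay between 2.28 and 8.35. The scanner software listed a ratio of 0 for these probes on all arrays except for 1 probe on array 1, at 0.65. No fold change is given.

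GREM1, the secreted antagonist, was higher in GO-treated cells on every array but too dim to be tested. Its single probe, at chr1:150559292-150559351 (plus strand), runs to a stop triplet in the reading frame of its first base, shown in capitals. It is printed because the value rests on this oligo alone.
GREM1: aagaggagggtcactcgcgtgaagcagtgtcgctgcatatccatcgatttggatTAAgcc
The signal was 20.7, 23.4, 61.7 and 12.8 in the control channel. In the GO channel it was 25.2, 36.4, 96.6 and 21.3. Both channels were well above background on arrays 1 to 3 and neither was on array 4. Array 3 was the brightest in both channels, and the ranges overlapped. Log2 ratios were 0.28, 0.64, 0.65 and 0.73, with a mean of 0.57 ± 0.20 (SD, n = 4), and the highest value was that of array 4, where the probe was at background. With no filter on dim probes the adjusted p was 0.0669. With normexp background correction and loess together the mean was 0.18.

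SMAD6 and SMAD7, the inhibitory SMADs, were a little lower on average, and neither passed. The SMAD6 probe lies on the minus strand of chromosome 1, where the files give it a span of 59179 bases (123063267 to 123122445), so its bases are not contiguous in that build. Its signal was 89.4, 66.0, 67.9 and 67.0 in the control channel. GO-treated cells gave 78.2, 54.6, 71.5 and 50.6. GO-treated cells were lower on arrays 1, 2 and 4 and higher on array 3, and the ranges overlapped. The log2 ratios were -0.20, -0.27, 0.074 and -0.41, with a mean of -0.20 ± 0.20 (SD, n = 4; adjusted p = 0.151, 95% interval -0.41 to 0.0070). With normexp and loess the SMAD6 mean was -0.11.

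SMAD7 was dim, and both of its probes exceeded background on 4 arrays in control cells but on only 2 in GO-treated cells. The brightest probe had a signal of 20.2, 33.8, 23.3 and 39.5 in the control channel. In GO-treated cells it was 17.5, 28.9, 21.0 and 38.6. The differences between arrays were larger than those between channels, and the ranges overlapped. Log2 ratios were -0.21, -0.23, -0.15 and -0.034, with a mean of -0.15 ± 0.086 (SD, n = 4; adjusted p = 0.124). The other probe, with no base in common, had a mean of -0.19 ± 0.17 (SD, n = 4; adjusted p = 0.138). The brightest SMAD7 probe was at -0.017 (adjusted p = 0.811) with normexp and loess and at -0.25 (adjusted p = 0.0385), still under the fold threshold, with median centring without lowess. Both probes met the filter through the control channel alone.

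The ID genes differed from each other. ID1 was higher in GO-treated cells on every array and passed the adjusted p but not the fold threshold, ID2 was higher on arrays 2 to 4 only, and ID3 and ID4 were close to 0 with 1 array apart. Of the 8 tested members, 2 (BMP2 and ID1) passed the adjusted p at any fold change, against 17.3% of the named genes and 18.1% of all tested probes. No difference between the ID genes was tested.

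**Figure D3:**
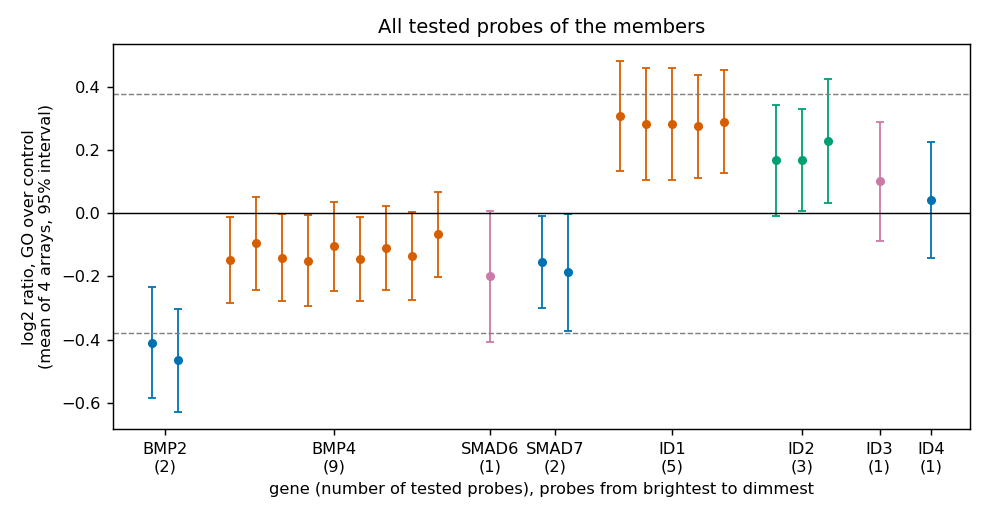
Mean log2 ratio of the 4 arrays with its 95% interval from limma (vertical axis) for the 24 tested probes, grouped by gene and ordered from the brightest to the dimmest. Dashed lines mark a fold change of 1.3. Both BMP2 probes lay below the lower line, and the 5 ID1 probes, at 0.28 to 0.31, lay between 0 and the upper line.

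ID1 is the classical BMP-induced member of the family and is known to bind E proteins in myoblasts. Its 5 probes are shifted by single bases along chromosome 22 (22637653 to 22637716) and share 56 bases, so they count as 1 site. The brightest probe had a signal of 3306, 2085, 3274 and 2480.3 in the control channel. GO-treated cells gave 3604, 2882, 3941 and 3209. The signal rose on each array, but the ranges of the channels overlapped because the arrays differed in level. The log2 ratios were 0.12, 0.47, 0.27 and 0.37, lowest on array 1. The mean was 0.31 ± 0.15 (SD, n = 4), a 1.24-fold higher level, with an adjusted p of 0.0339 and a 95% interval of 0.13 to 0.48. The 5 probes had means of 0.28 to 0.31 and adjusted p of 0.0339 to 0.0452. The adjusted p of the brightest probe was 0.134 without array 2, 0.0977 without array 3 and 0.0940 without array 4. It was 0.103 with no filter on dim probes, 0.131 with a plain one-sample test and 0.560 with the channels unpaired. With median centring without lowess the log2 ratio was 0.38 with an adjusted p of 0.0272, past both thresholds.

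**Figure D4:**
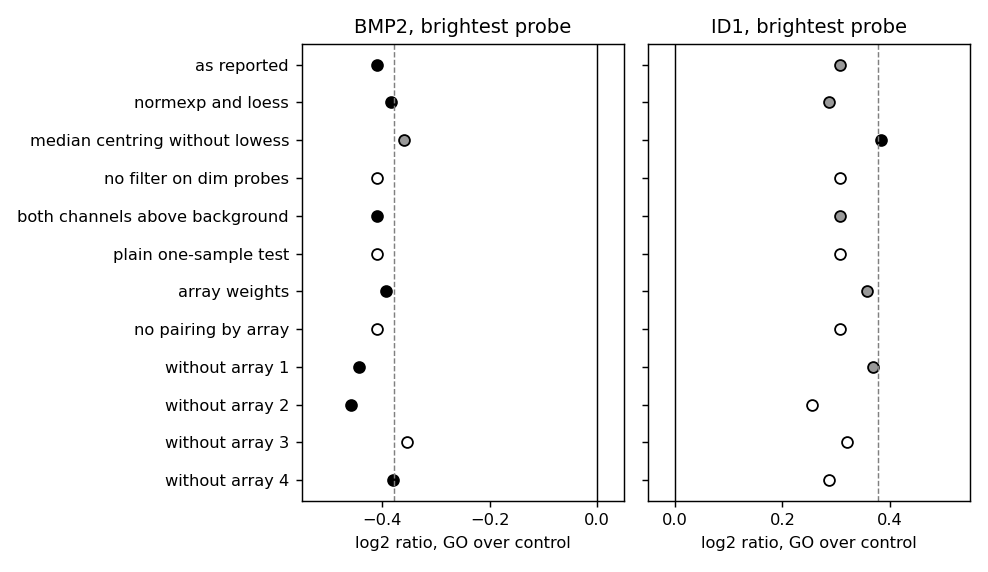
Log2 ratio of the brightest probe of BMP2 (left) and ID1 (right) as reported and under the alternatives. The mean of a gene's probes and the series table are not drawn. Filled black circles passed both thresholds, grey circles the adjusted p alone, and open circles neither. The dashed line marks a fold change of 1.3. BMP2 lay between -0.46 and -0.35 and ID1 between 0.25 and 0.38. With no filter on dim probes, both channels above background, a plain one-sample test or unpaired channels, only the adjusted p could move. The ratio is the same there by construction.

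ID2, which is also induced by BMPs and restrains differentiation in several lineages, had 3 tested probes on the minus strand of chromosome 15, between 81223727 and 81223840. The brightest had a signal of 331, 203, 269 and 207 in the control channel. In GO-treated cells it was 318, 235, 316 and 253. GO-treated cells were lower on array 1 and higher on the other arrays, and the ranges overlapped. By array, the log2 ratios were -0.056, 0.21, 0.23 and 0.29, with a mean of 0.17 ± 0.15 (SD, n = 4; adjusted p = 0.157). The 3 probes had means of 0.17 to 0.23 and adjusted p of 0.0972 to 0.157, and none changed with limma, while 2 had an unadjusted p of at most 0.05. Neighbouring probes shared 40 and 26 bases, and the outer pair shared 6. Array 1 was the lowest of the 4 in all 3 ID2 probes, as it was in all 5 ID1 probes.

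ID3 and ID4 complete the family. Their single probes are printed because each gene's value rests on 1 oligo, ID3 at chr2:29734795-29734854 and ID4 at chr20:18060977-18061036 (both plus strand). Capitals mark the first stop triplet in the reading frame of the first base, which the ID4 probe does not contain.
ID3: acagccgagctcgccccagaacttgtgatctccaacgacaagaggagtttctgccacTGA
ID4: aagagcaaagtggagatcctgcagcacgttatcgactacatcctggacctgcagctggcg
The ID3 probe ends on that triplet, so it reports the last coding bases. The ID4 letters fall in the helix-loop-helix region, by which ID proteins pair with E proteins.

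ID3 had a signal of 764, 951, 842 and 816 in the control channel. GO-treated cells gave 972, 990.1, 869 and 789.7. The channels overlapped, and array 1 stood apart from the others in the size of the difference. By array, the log2 ratios were 0.35, 0.059, 0.046 and -0.047, with a mean of 0.10 ± 0.17 (SD, n = 4; adjusted p = 0.397, 95% interval -0.086 to 0.29). Without array 1 the mean was 0.019. Array 1 was thus the highest for ID3, whereas it was the lowest for ID1 and ID2.

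ID4 had a signal of 509.7, 537, 322 and 333 in the control channel. With GO it was 500.4, 515, 394 and 326. The ranges overlapped, and GO-treated cells were lower on 3 arrays and higher on array 3. By array, the log2 ratios were -0.027, -0.061, 0.29 and -0.031, with a mean of 0.043 ± 0.17 (SD, n = 4; adjusted p = 0.728, 95% interval -0.14 to 0.23). Without array 3 the mean was -0.039, so the sign rests on that array.

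The likeness of the ID genes to other genes was described over the 8 log2 channel signals (4 arrays in 2 channels), which share arrays and were not scaled between arrays. Pearson's r between ID1 and ID2 was 0.90. How many other named genes reached that r with either was not counted. The r of ID3 with ID1 was -0.19 and with ID2 -0.21, and that of ID4 with ID3 was 0.58. Among 8448 other named genes, those most like ID1 were STEAP2 (r = 0.98), NAE1 (0.98) and ADK (0.98). Those most like ID2 were PPP1R9A (r = 0.99), GOLPH3 (0.99) and NMRK1 (0.99). For ID3 they were CXXC1 (r = 0.99), LPIN2 (0.99) and MRPL37 (0.99), and for ID4 they were LYNX1 (r = 0.98), SOX5 (0.98) and GLRX (0.98). The r of ID1 with BMP2 was -0.30 and with SMAD7 -0.71. That of ID2 with SMAD7 was -0.87 and with SMAD6 0.59.

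Around the members, most measured genes of the pathway did not change. Of 59 other genes listed for the pathway, 48 had a probe with their symbol and 31 were tested. NEO1 and FST were lower and SMAD9 was higher, against the same 8.69% of named genes. Counting these, 6 genes passed the adjusted p at any fold change, against 17.3% of named genes. The median log2 ratio of the 31 genes was 0.027.

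**Figure D5:**
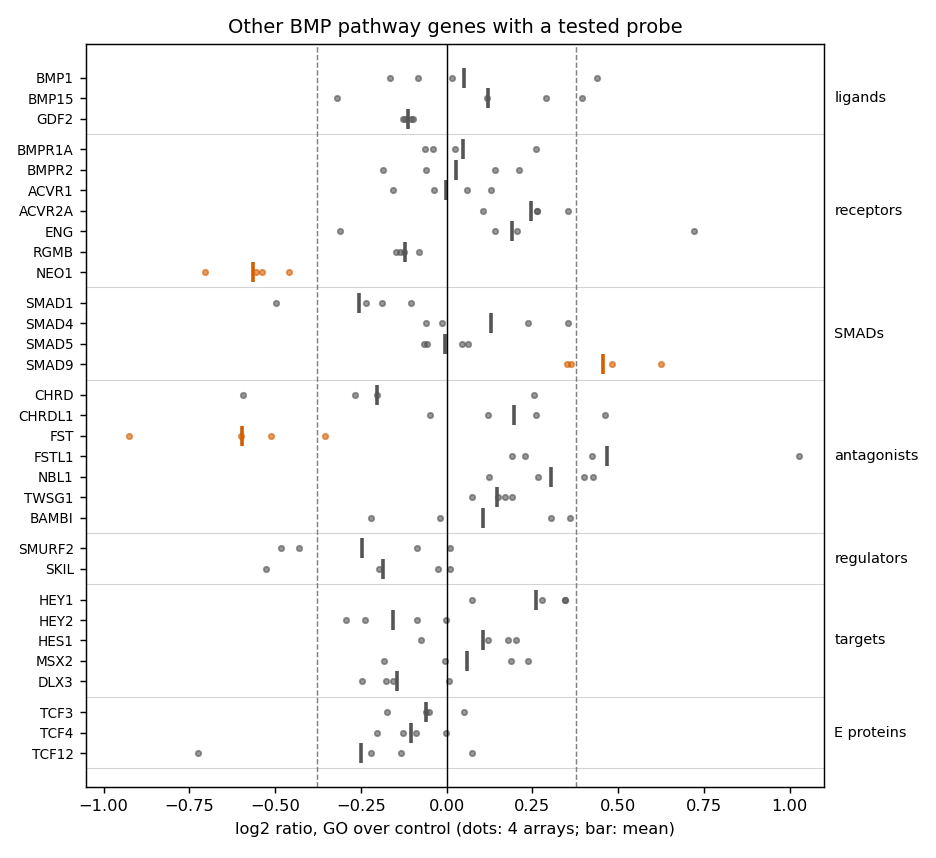
Log2 ratio, GO to control (horizontal axis), for the brightest probe of the 31 other pathway genes that were tested, grouped by role. The protease BMP1 is drawn in the ligand group. Dots are the 4 arrays, the vertical bars are their means, and the dashed lines mark a fold change of 1.3. The 3 genes that passed both thresholds, NEO1, SMAD9 and FST, are in orange.

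Among the receptors, 1 of 7 tested genes was lower and none higher. NEO1, a receptor for repulsive guidance molecules, which act as BMP co-receptors, had log2 ratios of -0.54, -0.46, -0.71 and -0.56. All arrays lay on the same side, with control signals of 755 to 912 and GO signals of 514 to 628. The mean was -0.56 ± 0.10 (SD, n = 4; adjusted p = 0.00479), and all 3 NEO1 probes passed. With a plain one-sample test the adjusted p of the brightest NEO1 probe was 0.0636. The type II receptor ACVR2A had a mean of 0.25 ± 0.10 (SD, n = 4; adjusted p = 0.0430), under the fold threshold, and its other probe was at 0.057. The type I receptors BMPR1A and ACVR1 had means of 0.046 and -0.0012, with adjusted p of 0.687 and 0.992.

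Among the receptor-regulated and common SMADs, 1 of 4 tested genes was higher. SMAD9 had log2 ratios of 0.48, 0.36, 0.35 and 0.62, and its control signals of 124 to 157 lay below its GO signals of 177 to 219. The mean was 0.46 ± 0.13 (SD, n = 4; adjusted p = 0.00929), but 2 of its 4 probes did not pass, and the probes ranged from -0.036 to 0.48. With normexp background correction and loess the SMAD9 log2 ratio was 0.29, under the fold threshold. Its adjusted p was 0.0523 with no filter on dim probes, 0.0822 with a plain one-sample test and 0.117 with the channels unpaired. SMAD1 had a mean of -0.26 ± 0.17 (SD, n = 4; adjusted p = 0.0661), and its other probe was at 0.17. SMAD4 and SMAD5 had means of 0.13 and -0.0042. These were the lowest of their 6 and 8 tested probes, which reached 0.28 and 0.18.

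Among the extracellular antagonists, 1 of 7 tested genes was lower. FST, follistatin, binds activin and myostatin as well as BMPs and is known to favour muscle growth. Its log2 ratios were -0.93, -0.60, -0.51 and -0.35. GO signals ran from 1061 to 1633 and control signals from 1606 to 3026, so the groups overlapped slightly although each array was lower. The mean was -0.60 ± 0.24 (SD, n = 4; adjusted p = 0.0120), and the adjusted p was 0.0545 without array 2. It was 0.0816 with no filter on dim probes, 0.111 with a plain one-sample test and 0.286 with the channels unpaired. NBL1, a relative of GREM1, had a mean of 0.30 ± 0.14 (SD, n = 4; adjusted p = 0.0329), under the fold threshold. FSTL1 had a mean of 0.47 ± 0.39 (SD, n = 4; adjusted p = 0.0646), with array 4 at 1.03 and the others at 0.19 to 0.42. The antagonists' median was 0.15.

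None of the tested genes in the other lists changed with limma. In the ligand list 3 genes were tested: BMP1, which is a protease despite its name, and BMP15 and GDF2. Of these, none had an unadjusted p of at most 0.05. BMP7, BMP10, GDF5 and GDF6 were at background on all arrays. Of the 2 regulators tested, SMURF2 was the one with an unadjusted p of at most 0.05, at -0.25 ± 0.24 (SD, n = 4). Of the 5 tested transcriptional targets other than the ID genes, HEY1 had a mean of 0.26 ± 0.13 (SD, n = 4; adjusted p = 0.0448), under the fold threshold, and it was the one with an unadjusted p of at most 0.05. HES1 and MSX2 had means of 0.11 and 0.059. The E proteins TCF3, TCF4 and TCF12, the partners that ID proteins bind, had means of -0.059, -0.11 and -0.25, with adjusted p of 0.203 to 0.533 and none at an unadjusted p of at most 0.05. The 6 TCF3 probes ranged from -0.27 to -0.044. The median of the ligand list was 0.052, which is the value of BMP1. Medians were 0.027 for receptors, 0.063 for SMADs, -0.22 for regulators, 0.059 for targets and -0.11 for E proteins.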

How the data were processed

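Labeled cRNA of GO-treated (Cy5) and control (Cy3) cells was hybridized to 4 dual-color horse arrays. The authors scanned them with Feature Extraction (version 10.10.1.1 in the file headers). For each channel the deposited intensity values are signals after background subtraction, detrending and dye normalization, and the deposited log10 ratios are processed Cy5 over Cy3. The authors' series table holds the same log10 ratios (180880 of 180880 values equal).

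Ratios were converted to log2. The 1417 control spots and the outlier spots (10 to 19 per array) were left out, and spots of 1 probe were averaged. Log2 ratios were tested against 0 (two-sided) with limma 3.58.1 in R 4.3.3 on an intercept with eBayes, and the code was tested on simulated data. A gene was represented by its brightest tested probe. Positions on EquCab1 were taken from the files, and a RefSeq gene table was used only to tell which file symbols are genes. Both channels of an array share a hybridization, and the ratio pairs them: their deviations from the group means correlated at 0.60, 0.86, 0.73 and 0.48 on arrays 1 to 4.

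The members and gene lists were chosen with earlier results of these data known. All members are named, with every pathway gene that passed both thresholds and up to 3 others per list. The result of 1 cell type marker is not reported here. Genes most like each ID gene were the 3 with the highest Pearson correlation. Alternatives were normexp (offset 50) with loess, median centring without lowess, no filter on dim probes, both channels above background, a plain one-sample test, array weights, unpaired channels, the mean of a gene's probes, the series table, and leaving out each array. The number of arrays limits the precision, and no batch term for the slide was possible.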

Additional observations from a re-analysis of the deposited data

Results flagged for a closer look

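Of 40 genes examined (9 members and 31 pathway genes, each by its brightest probe), 1 had an array far from the other 3. The ID4 log2 ratio on array 3 was 0.29, while the other arrays lay between -0.061 and -0.027, so that 90.3% of the range was the gap to the nearest array. Chance alone sets apart about 1 in 20 such groups. The cause was not tested.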

How the results depend on the processing

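Of 99 values of the 9 members under the alternatives, 91 kept their direction and their call as changed or not changed, or, for GREM1, moved by less than its SD. BMP2, the member that changed, kept its call in 7 of 12. Several alternatives altered only the filter or the test and left the ratio as it was, so its direction could not move there. Within an unchanged call the adjusted p could still cross 0.05: ID1 was at or under it in 5 of 11 alternatives (0.0138 to 0.560), and SMAD7 in 1 of 10. BMP2 lay under a threshold with median centring without lowess (-0.36), without array 3 (-0.35), and, at an unchanged log2 ratio of -0.41, with no filter on dim probes (adjusted p = 0.0713), a plain one-sample test (0.101) and without the replicate block, that is, with the channels unpaired (0.129). ID1 passed both with median centring (0.38), ID4 turned to -0.039 without array 3 (-0.039 to 0.078 on leaving out each array), and GREM1 moved to 0.18 with normexp and loess. The cause was not tested.

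Counted over members found by gene name alone, which leaves out ID1, median centring gave 1 changed member probe and 0 changed member genes. No filter on dim probes gave 908 changed probes, 0 member probes, 0 member genes and 1 pathway gene (NEO1). The plain one-sample test gave 147, 0, 0 and 0, and the fit without the replicate block 370, 0, 0 and 1. With normexp 1297 probes changed. Leaving out 1 array gave 1566 to 2430 probes, 1 to 2 member probes, 0 to 1 member genes and 2 to 3 pathway genes. In the reported fit 37.3% of 2399 changed probes were higher, and with median centring 51.3% of 3389. Both channels above background, array weights, the series table, the mean of a gene's probes and the added naming of ID1, ID4 and SMAD7 kept the counts within 1.5 times. BMP6 was fitted only with no filter on dim probes, where its brightest probe was listed at 0, and SMAD7 had none where both channels had to be above background.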
